A study of Rattus norvegicus with 24 samples.

Results

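The set described here was named for the intermediate filaments of reactive astrocytes. It held Gfap, Vim, Nes and Synm, the nuclear lamin gene Lmna and the filament linker gene Plec. These 6 genes were taken by name from the 26641 named loci of an mRNA-Seq table of rat brain that held 42334 loci in all. Each name matched 1 locus. The tissue came from adult male Sprague-Dawley rats killed 3 months after an operation. In the TBI group (n = 6 rats) a lateral fluid-percussion injury, a pressure pulse applied to the intact dura through a left-sided craniectomy, was given under anesthesia, and the sham-operated controls (n = 6 rats) had the same anesthesia and surgery, craniectomy included, without the impact. By the study's account the sequenced TBI rats were picked for signs of chronic inflammation, with MRI used to find them, so they do not stand for all injured rats. RNA from both the perilesional cortex and the thalamus of the injured side was sequenced in every rat, which gave 24 libraries in 4 groups of 6. The samples were pieces of whole tissue, so a higher level can stand for more cells of a type or for more RNA per cell, and the 2 cannot be told apart. The region labels could be checked: 7 cortex markers summed to between 81018 and 85383 normalized counts in the sham cortex and to between 7078 and 12020 in the sham thalamus, and 8 thalamus markers summed to between 87564 and 126843 in the sham thalamus and to between 4532 and 4934 in the sham cortex.

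Intermediate filaments are rope-like polymers that give cells mechanical strength. The astrocyte network is built mainly from GFAP and vimentin, with nestin and synemin as partners that join through the other two and do not form filaments well by themselves. Plectin ties these filaments to each other, to actin and microtubules and to the cell surface, and lamins A and C, both made from Lmna, form the meshwork under the nuclear envelope. A rise of GFAP and vimentin is a textbook mark of the astrocyte reaction to brain injury, and nestin is best known from neural progenitors. Vimentin is also made by endothelial, meningeal, ependymal and microglial cells, and lamin A/C and plectin by most cell types.

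The loci were placed by the authors' gene table, which came from an assembly on the genome RGSC3.4, as the study's methods name it, with Ensembl's Rnor_5.0 transcripts as a guide. The processing notes name Rnor_5.0, so the build of these coordinates was not settled. Gfap was at chr10:90763144-90771847, Vim at chr17:82500857-82509377, Nes at chr2:206747072-206755585, Synm at chr1:129757791-129787766 and Lmna at chr2:207245234-207265909. Plec was on a locus at chr7:117215845-117286500 that the assembly had joined with its neighbour Parp10, so fragments of Plec and Parp10 cannot be separated, and every Plec value below is for the joined locus. For 5 of the 6 members the RefSeq promoter table of the GRCr8 build had the stretch from 250 bases before to 50 bases after the annotated start. The promoters of Gfap and Vim, the members that rose in both regions, and of Nes, which rose in the thalamus, are shown here for the letters around 1 annotated start of each gene. The counts are over whole loci, with 2 starts listed for Gfap and 1 each for Vim and Nes, on an older build, and whether the counted transcripts begin in these windows was not tested. They are written 5′ to 3′ on the strand of the gene, at chr10:88361612-88361911 on the minus strand for Gfap, chr17:81577011-81577310 on the plus strand for Vim and chr2:175736338-175736637 on the plus strand for Nes. Capitals mark matches, on either strand, to a TATA box read as TATAAA, to the GC box with the letters GGGCGG, to the CCAAT box that has its letters as its name, to the AP-1 motif written TGANTCA or to the STAT motif written as TTCNNNGAA.
Gfap: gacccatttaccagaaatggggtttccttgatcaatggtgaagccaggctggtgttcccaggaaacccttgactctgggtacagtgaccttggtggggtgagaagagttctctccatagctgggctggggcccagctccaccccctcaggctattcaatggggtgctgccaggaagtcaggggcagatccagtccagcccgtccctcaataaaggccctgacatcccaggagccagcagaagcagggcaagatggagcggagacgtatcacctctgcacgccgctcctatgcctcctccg
Vim: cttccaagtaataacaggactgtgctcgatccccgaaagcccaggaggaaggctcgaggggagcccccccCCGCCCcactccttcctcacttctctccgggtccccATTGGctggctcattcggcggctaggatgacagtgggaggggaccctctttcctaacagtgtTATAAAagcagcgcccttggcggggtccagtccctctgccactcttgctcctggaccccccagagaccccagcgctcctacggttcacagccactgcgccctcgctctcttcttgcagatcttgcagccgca
Nes: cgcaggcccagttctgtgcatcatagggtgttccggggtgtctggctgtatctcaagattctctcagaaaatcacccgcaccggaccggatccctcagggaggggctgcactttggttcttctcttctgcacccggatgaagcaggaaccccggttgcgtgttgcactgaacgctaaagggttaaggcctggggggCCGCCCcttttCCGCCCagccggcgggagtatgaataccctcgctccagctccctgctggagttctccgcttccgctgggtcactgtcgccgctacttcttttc
The Vim promoter held a TATA box, a GC box and a CCAAT box, the Nes promoter held 2 GC boxes, and no letters of the 5 motifs were in the Gfap window. Of all 33469 promoters of this length, 14.2% had the TATA letters, 33.1% the GC box, 37.5% the CCAAT box, 7.33% the AP-1 letters and 8.87% the STAT letters. No member's window had the STAT letters, and the AP-1 letters were in 1 of the 5, that of Lmna. The share of G and C was 58.7% in the Gfap window, 62.0% in that of Vim and 60.0% in that of Nes, against a median of 51.7% over all promoters.

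Values are normalized counts, the fragments on a locus after scaling of each library by its size factor, and the libraries held between 30568927 and 54608922 fragments. The members' counts ran from 26 to 117 fragments per library for Nes and from 9240 to 136967 for Gfap, so that Nes carried the most counting error. Fold changes are on the log2(normalized count + 1) scale and adjusted p-values are from limma with Benjamini-Hochberg adjustment over all loci with a mean of at least 10 normalized counts, unless another test is named. All 6 members passed that filter in both regions. Levels of different genes are not compared because no locus lengths were used. The libraries of TBI rat 45 held more choroid plexus and meningeal transcripts than those of the other TBI rats. Some results for Vim, Lmna and Nes are also given without the 6 libraries richest in choroid plexus transcripts. The other gene lists and the cell type markers are given for all libraries only, so what rat 45 adds to them is not shown.

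**Figure D1:**
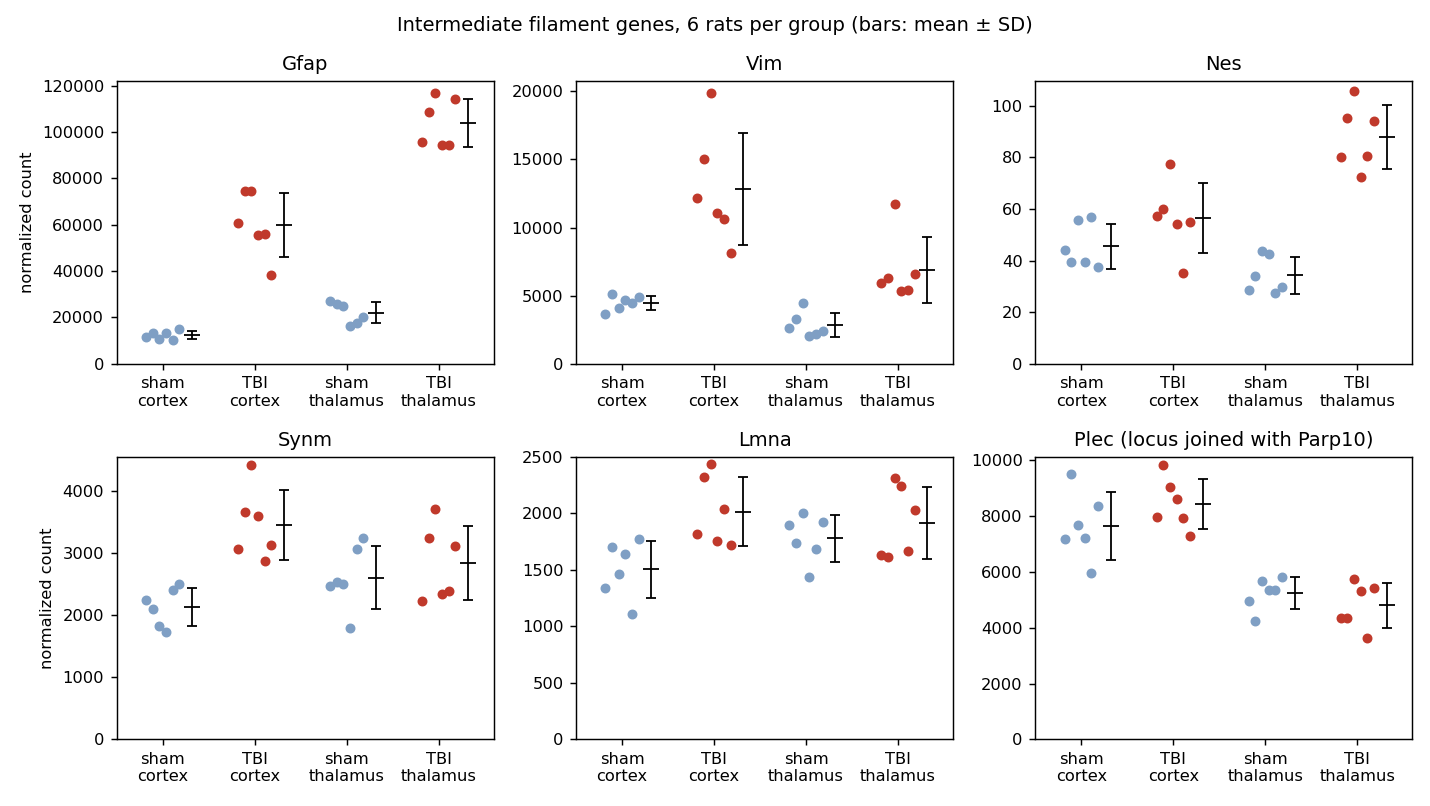
Normalized counts (vertical axes, linear, starting at 0) of the 6 members in each library of the 4 groups, 1 point per rat, with the group mean ± SD beside the points. Every TBI value lay above every sham value for Gfap and Vim in both regions, for Synm in the cortex and for Nes in the thalamus.

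In the perilesional cortex, 4 of the 6 members rose after TBI (Gfap, Vim, Synm and Lmna) and none fell, where 14.3% of 15493 loci were higher and 14.9% lower at the same threshold. In the ipsilateral thalamus, 3 of the 6 rose (Gfap, Vim and Nes) and none fell, against 14.5% of 15564 loci higher and 20.9% lower. The median log2 change of the members was 0.56 in the cortex and 0.70 in the thalamus, and that of all loci tested was -0.0096 and -0.023. The members were chosen with earlier results of these data known, so the values for all loci give scale and are not a test of the set. The split of calls over all loci in the thalamus depended on the scaling: 59.0% of them were lower, 48.0% with upper quartile scaling and 44.9% with edgeR on recovered fragments. The same members were called in both regions under each of these settings.

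Gfap, the defining filament protein of astrocytes, had the largest rise of the members in both regions. In the cortex the sham values ran from 10322 to 15037 normalized counts (median 12319) and the TBI values from 38135 to 74737 (median 58410). In the thalamus the sham values ran from 16342 to 27221 (median 22561) and the TBI values from 94239 to 116667 (median 102135). The lowest TBI rat was 2.54 times the highest sham rat in the cortex and 3.46 times in the thalamus, so the groups stood far apart. The log2 change was 2.26 ± 0.14 (SE; adjusted p = 4.85e-07) in the cortex and 2.26 ± 0.12 (adjusted p = 2.33e-08) in the thalamus, about 4.78-fold and 4.79-fold. Gfap lay at percentile 99.7 of all loci by size of rise in the cortex and at percentile 99.8 in the thalamus.

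Vim, which encodes vimentin, rose less than Gfap in both regions. In the cortex the sham values were between 3641 and 5096 normalized counts (median 4543) and the TBI values between 8156 and 19862 (median 11619). In the thalamus they were between 2042 and 4478 in sham rats (median 2507) and between 5346 and 11722 in TBI rats (median 6135). The groups did not overlap in either region, although in the thalamus the lowest TBI value was only 1.19 times the highest sham value. The log2 change was 1.47 ± 0.16 (SE; adjusted p = 2.33e-05) in the cortex and 1.28 ± 0.21 (adjusted p = 0.000302) in the thalamus. The highest TBI value in each region came from rat 45 and the highest sham thalamus value from rat 34, both of which also had high sums of choroid plexus transcripts in that region.

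In the thalamus the 9 measured ependymal and choroid plexus markers summed to 262147 normalized counts in TBI rat 45, 108034 in sham rat 50 and 68901 in sham rat 34, and to between 1062 and 2361 in the other 9 rats. Over 10000 in the cortex were TBI rat 45 (32676) and sham rats 26 (23651) and 34 (11258). The thalamus Vim value was 11722 in rat 45, 2213 in sham rat 50 and 4478 in sham rat 34. In the cortex it was 19862 in rat 45, while sham rats 26 (3641) and 34 (4127) had the lowest Vim values of the sham cortex group. Vim thus did not follow the choroid plexus sums in every library. The 10 fibroblast and meningeal markers summed to 49533 in the thalamus of rat 45, against 2811 to 3511 in the other 5 TBI rats. Without these 6 libraries, an alternative chosen after seeing the data, the log2 change of Vim was 1.23 in the cortex (adjusted p = 0.000213) and 1.21 in the thalamus (adjusted p = 2.05e-05).

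**Figure D2:**
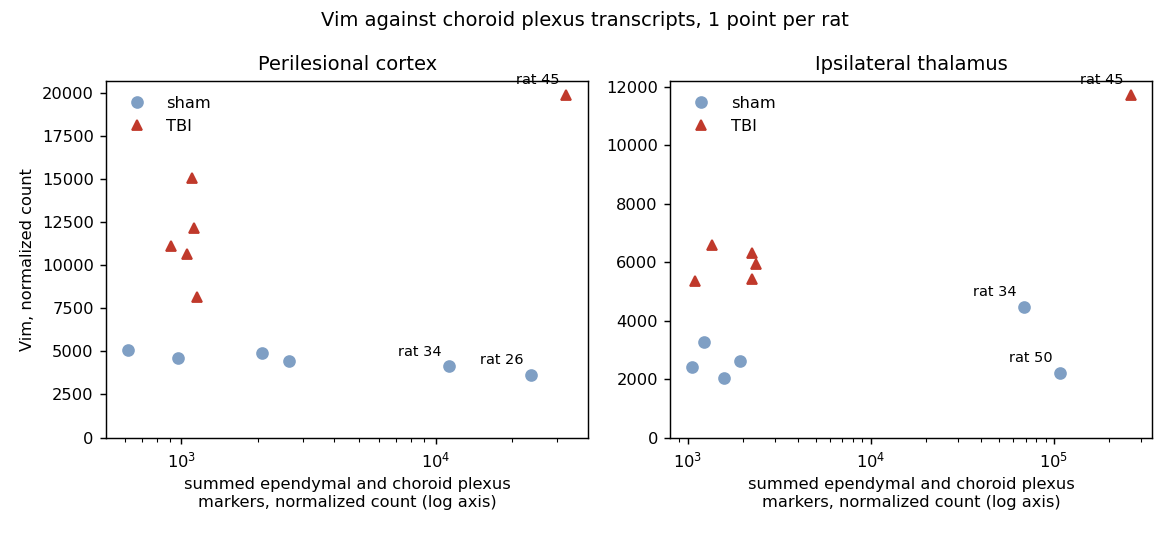
Vim (vertical axes, normalized count) against the summed ependymal and choroid plexus markers of the same library (horizontal log axes), 1 point per rat, circles for sham and triangles for TBI, with the 6 libraries over 10000 named. The TBI points lay above the sham points in each region. At the high end of the horizontal axis the only TBI point was that of rat 45, which had the highest Vim value of its group in each region.

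Nes, the gene of nestin, was low in every library and rose in the thalamus. The sham thalamus values ran from 27.3 to 43.8 normalized counts (median 31.8) and the TBI thalamus values from 72.3 to 105.7 (median 87.3). All 6 TBI rats were above every sham rat there, with a log2 change of 1.35 ± 0.16 (SE; adjusted p = 2.43e-05), about 2.54-fold. In the cortex the sham values ran from 37.4 to 57.0 (median 41.8) and the TBI values from 35.1 to 77.3 (median 56.1). There the groups overlapped, with 3 TBI rats above every sham rat and 1 below every sham rat. The cortical log2 change of 0.29 did not pass the threshold (adjusted p = 0.245), and its 95% interval ran from -0.094 to 0.67, below the 1.01 at the lower end of the interval in the thalamus.

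Synm, whose product synemin binds GFAP and vimentin filaments to other structures, rose in the cortex. The sham cortex values were between 1730 and 2496 normalized counts (median 2176) and the TBI cortex values between 2879 and 4419 (median 3358). The groups did not overlap, and the log2 change was 0.69 ± 0.11 (SE; adjusted p = 0.000365). In the thalamus the sham values were between 1799 and 3240 (median 2525) and the TBI values between 2235 and 3716 (median 2757), with 1 TBI rat above every sham rat. The thalamic log2 change was 0.12 (adjusted p = 0.551; 95% interval from -0.19 to 0.44).

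Of the 6 members, those with groups that did not overlap, all higher in TBI rats, were 3 in the cortex (Gfap, Vim and Synm), where 7.02% of all loci were separated in this direction, and 3 in the thalamus (Gfap, Vim and Nes), where 7.46% were.

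Lmna, the gene of the nuclear lamins A and C, showed a small rise in the cortex. Its sham values were between 1107 and 1774 normalized counts (median 1552) and its TBI values between 1718 and 2434 (median 1929), and 4 TBI rats were above every sham rat. The log2 change was 0.42 ± 0.12 (SE; adjusted p = 0.0133). It was 0.33 without the choroid-rich libraries and no longer passed the threshold (adjusted p = 0.126). In the thalamus the sham values (1434 to 2002, median 1821) and the TBI values (1614 to 2313, median 1848) overlapped, with a log2 change of 0.098 (adjusted p = 0.511; 95% interval from -0.13 to 0.33).

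The locus of Plec and Parp10 passed the threshold in neither region. The cortex values were between 5948 and 9498 normalized counts in sham rats (median 7436) and between 7293 and 9806 in TBI rats (median 8280). The thalamus values were between 4249 and 5812 in sham rats (median 5357) and between 3626 and 5729 in TBI rats (median 4838). The log2 change was 0.15 in the cortex (adjusted p = 0.254; 95% interval from -0.053 to 0.36) and -0.14 in the thalamus (adjusted p = 0.355; 95% interval from -0.37 to 0.095). Both intervals ended below the lower ends of those of Gfap and Vim in the same region.

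**Figure D3:**
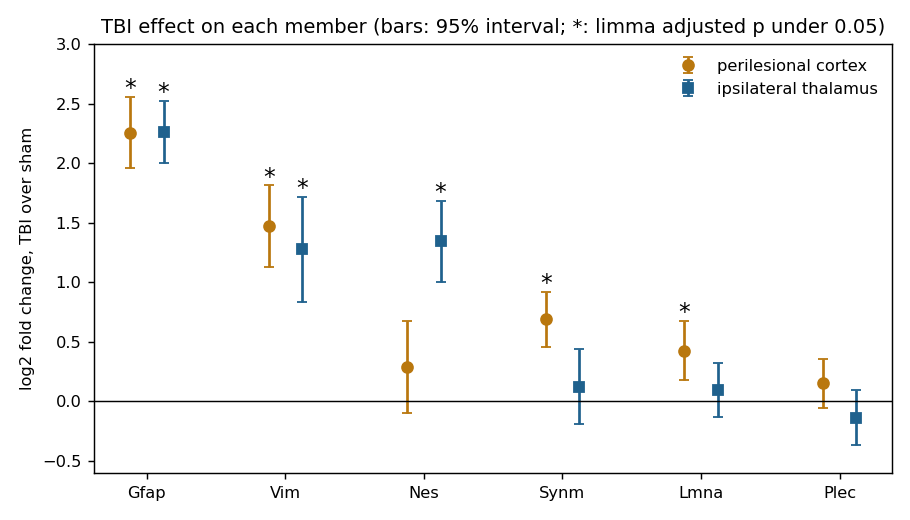
Log2 fold change of TBI over sham rats (vertical axis) for each member in the perilesional cortex (circles) and the ipsilateral thalamus (squares), n = 6 rats per group, with 95% intervals as bars and stars where limma's adjusted p was under 0.05. Gfap and Vim were starred in both regions, Nes in the thalamus, Synm and Lmna in the cortex and Plec in neither.

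Whether the TBI effect differed between the regions was tested directly as the thalamic minus the cortical log2 change, a test that 7.26% of 15678 loci passed in either direction. Nes passed, with an effect larger by 1.06 ± 0.24 (SE; adjusted p = 0.00757) in the thalamus. For Synm the effect was smaller in the thalamus, with a difference of -0.57 ± 0.20 (adjusted p = 0.0811), which passed the threshold when the rat was a block (adjusted p = 0.00307). The blocked fit uses the fact that both regions came from the same rat. The Gfap effects differed by 0.0024 with a 95% interval from -0.41 to 0.42, and the sign of that difference turned between settings. The differences of Vim (-0.19, adjusted p = 0.744), Lmna (-0.33, adjusted p = 0.255) and Plec (-0.29, adjusted p = 0.275) did not pass the threshold.

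The regions also differed in the members' own levels. In sham rats, where 61.4% of loci differed between the regions, Gfap was higher in the thalamus by a log2 difference of 0.82 (adjusted p = 1.78e-05). Vim (-0.70, adjusted p = 0.00369), Nes (-0.40, adjusted p = 0.0418) and Plec (-0.54, adjusted p = 0.000129) were lower there. The Nes difference was lost in several alternatives, with an adjusted p of up to 0.132 without the choroid-rich libraries. In TBI rats, where 60.6% of loci differed, Gfap (0.82, adjusted p = 1.88e-05) was again higher in the thalamus and Vim (-0.90, adjusted p = 0.00041) and Plec (-0.83, adjusted p = 3.65e-07) were again lower. Nes was now higher in the thalamus, by 0.66 (adjusted p = 0.00159). Synm differed by 0.27 in sham rats (adjusted p = 0.0938) and by -0.29 in TBI rats (adjusted p = 0.0716), and with the rat as a block both passed the threshold, at adjusted p = 0.00297 and 0.00175. Lmna differed by 0.25 in sham rats (adjusted p = 0.0705) and by -0.075 in TBI rats (adjusted p = 0.61). From the lowest to the highest group mean, Gfap thus ran sham cortex, sham thalamus, TBI cortex and TBI thalamus (12344 ± 1777, 22021 ± 4545, 59944 ± 13737 and 103947 ± 10477 normalized counts; mean ± SD, n = 6 each).

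The members did not rise by the same amount. For each of the 15 pairs in each region, the difference between their log2 changes was tested with an exact two-sided permutation test of 6 against 6 rats, and p-values were adjusted over the 30 tests, with 0.00216 the smallest unadjusted p this design gives. Of these, 12 passed in the cortex and 11 in the thalamus. Gfap rose more than every other member in both regions, by 0.79 ± 0.10 (SE; adjusted p = 0.00361, exact permutation test) more than Vim in the cortex and by 0.98 ± 0.18 (adjusted p = 0.00649, exact permutation test) more in the thalamus. Vim rose more than Nes in the cortex by 1.18 ± 0.21 (adjusted p = 0.00361, exact permutation test), while in the thalamus their changes differed by -0.069 ± 0.20 (adjusted p = 0.768, exact permutation test). Synm and Lmna differed by 0.27 ± 0.17 in the cortex (adjusted p = 0.177, exact permutation test) and by 0.027 ± 0.16 in the thalamus (adjusted p = 0.861, exact permutation test). Without the cortex library of sham rat 50 the cortical difference was 0.39 and passed (adjusted p = 0.0207, exact permutation test).

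The members were then set against 12 astrocyte identity genes. Among these genes were Aqp4, the water channel of astrocyte endfeet, Slc1a2 and Slc1a3, the glutamate transporters, and Glul, glutamine synthetase. These 12 summed to between 398140 and 425283 normalized counts in the sham cortex and between 349116 and 415555 in the TBI cortex, and to between 298707 and 313385 in the sham thalamus and between 320113 and 359544 in the TBI thalamus. In the cortex 4 of the 12 rose, 3 fell (14.3% and 14.9% of all loci) and the median log2 change was -0.042. In the thalamus 4 rose, none fell (14.5% and 20.9% of all loci) and the median was 0.076. The largest rises were those of Aqp4 (0.68, adjusted p = 1.05e-05), Ntsr2 (0.42, adjusted p = 0.00601) and Aldh1l1 (0.33, adjusted p = 0.0099) in the cortex and of Aqp4 (1.07, adjusted p = 4.41e-07), Gja1 (0.42, adjusted p = 7.09e-05) and Aldh1l1 (0.28, adjusted p = 0.00634) in the thalamus. Slc1a2 (-0.21, adjusted p = 0.0318), Aldoc (-0.21, adjusted p = 0.00825) and Glul (-0.21, adjusted p = 0.00678) fell in the cortex. Relative to the mean log2 level of these genes, Gfap was higher in TBI rats by 2.18 ± 0.17 (SE) in the cortex and by 2.10 ± 0.12 in the thalamus (adjusted p = 0.00433 for both, exact two-sided permutation test over 12 tests). Vim was higher by 1.39 ± 0.20 in the cortex and by 1.12 ± 0.23 in the thalamus, Synm by 0.61 ± 0.13 in the cortex and Nes by 1.18 ± 0.14 in the thalamus, all at adjusted p = 0.00433 in the same exact permutation test. The relative change of Lmna in the cortex was 0.35 ± 0.14 and did not pass (adjusted p = 0.0705, exact permutation test).

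Some markers of other cells in the tissue moved as well, and their part in the members' changes was not tested. For scale, 14.3% of all cortical loci tested rose and 14.9% fell. Among thalamic loci these shares were 14.5% and 20.9%. Counts below such as 2 of 10, 1 of 7 or 1 of 9 lie close to such shares. They do not by themselves show a change of that cell type. Of 14 microglia and macrophage markers, 13 rose in the cortex and 14 in the thalamus, and their sum went from between 14639 and 15620 normalized counts in sham rats to between 21287 and 28972 in TBI rats in the cortex, and from between 16053 and 21225 to between 35347 and 48450 in the thalamus. Of 10 endothelial markers, 2 rose in the cortex and 5 in the thalamus, with sums of 17011 to 19709 in sham and 18358 to 21400 in TBI cortex and of 12969 to 17126 in sham and 15210 to 22085 in TBI thalamus. Of 8 mural cell markers, 3 rose in the cortex and 6 in the thalamus, with sums of 16724 to 19739 and 17806 to 25257 in the cortex and 12994 to 17507 and 17235 to 24882 in the thalamus. Of 10 fibroblast and meningeal markers, 7 rose and 1 fell in the cortex, where their sums were 13527 to 20056 in sham and 20564 to 52773 in TBI rats, and none of 9 tested passed in the thalamus. No marker of these lists was at 0 in all libraries of a group. Of 7 oligodendrocyte precursor markers, 4 rose in the cortex, where their sums were 10991 to 13014 in sham and 12759 to 15312 in TBI rats, and 1 rose in the thalamus, where they were 18259 to 22423 and 19053 to 25466. Of 9 oligodendrocyte markers, 3 rose in the cortex (135211 to 180152 in sham and 128981 to 175902 in TBI rats) and 1 in the thalamus (423314 to 585042 and 416594 to 557484). Of 14 neuron markers, 10 fell in the cortex and 11 in the thalamus and none rose.

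**Figure D4:**
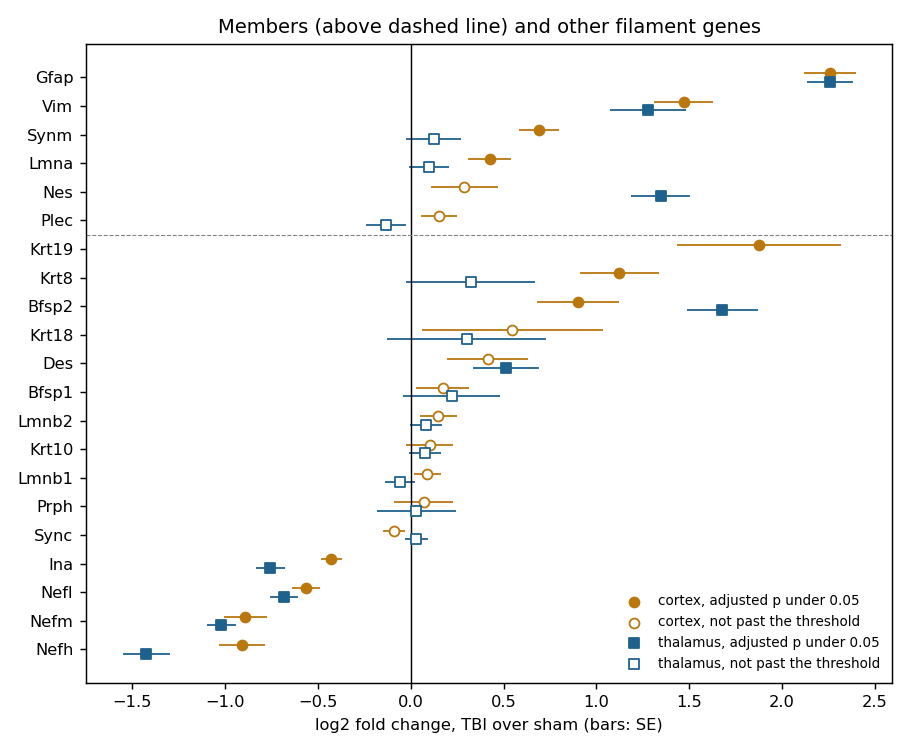
Log2 fold change of TBI over sham rats (horizontal axis) with SE for the members, above the dashed line, and for 15 other intermediate filament genes, with circles for the cortex, squares for the thalamus and filled symbols where limma's adjusted p was under 0.05. The 4 neurofilament genes at the bottom lay left of zero in both regions, and Krt19 has no thalamus symbol because it was not tested there.

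The other intermediate filament genes went both ways. Of 15 tested in the cortex 3 rose and 4 fell, with a median log2 change of 0.10. Of 14 tested in the thalamus 2 rose and 4 fell, with a median of 0.053. Of all loci, 14.3% rose and 14.9% fell in the cortex and 14.5% rose and 20.9% fell in the thalamus. The counts of rises lie close to these shares and do not by themselves show a rise of this list. In each region those that fell were the neuronal filament genes Nefl, Nefm, Nefh and Ina. Nefh, the heavy neurofilament subunit of large axons, fell by 0.91 on the log2 scale in the cortex (adjusted p = 0.000126) and by 1.43 in the thalamus (adjusted p = 2.05e-06). Nefl, the light subunit, fell by 0.56 (adjusted p = 0.000111) and by 0.68 (adjusted p = 1.33e-05), Nefm, the medium subunit, of which the locus with the higher mean was used, by 0.89 (adjusted p = 9.14e-05) and by 1.02 (adjusted p = 5.53e-07), and Ina, alpha-internexin, by 0.43 (adjusted p = 8.8e-05) and by 0.76 (adjusted p = 9.35e-06). Bfsp2, known as a filament gene of the eye lens, rose from a low level in both regions, from 9.17 ± 2.09 to 17.8 ± 2.98 normalized counts in the cortex (mean ± SD, n = 6; adjusted p = 0.00678, limma) and from 15.2 ± 2.93 to 51.1 ± 10.1 in the thalamus (adjusted p = 1.77e-05, limma). The keratin genes Krt8 (log2 change 1.12, adjusted p = 0.00144) and Krt19 (1.88, adjusted p = 0.00562), filaments of epithelia, rose in the cortex. Krt19 went there from 7.91 ± 4.28 normalized counts in sham rats to 35.0 ± 23.9 in TBI rats (mean ± SD). Krt19 and Bfsp2 had sham cortex means under 10, so they passed the filter in the cortex only through their TBI values. Only a rise could be called for them there, so their cortical tests give no support for a rise. Both are among the 3 counted as higher in the cortex. Des, the desmin gene of muscle and vessel wall cells, rose in the thalamus (0.51, adjusted p = 0.0377). The B-type lamin genes Lmnb1 (0.090 in the cortex and -0.059 in the thalamus) and Lmnb2 (0.15 and 0.084) did not pass the threshold in either region.

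Of 19 measured linkers and nuclear envelope partners, 4 rose and 2 fell in each region, with median log2 changes of 0.11 in the cortex and 0.079 in the thalamus. Of all loci, 14.3% rose and 14.9% fell in the cortex and 14.5% rose and 20.9% fell in the thalamus. The counts lie near these shares and do not by themselves show a response of this list. Hspb1, a small heat shock protein that binds intermediate filaments, had the largest rise of this list in both regions, 1.50 ± 0.24 (SE; adjusted p = 0.000388) in the cortex and 2.10 ± 0.16 (adjusted p = 4.41e-07) in the thalamus. Bag3, a chaperone partner of small heat shock proteins, also rose in both (0.60, adjusted p = 0.0164, and 0.32, adjusted p = 0.0447), and Cryab, the alpha-B-crystallin gene, in the thalamus (0.34, adjusted p = 0.0393). Syne3, which encodes the nesprin that binds plectin at the nucleus, rose in the cortex (0.60, adjusted p = 0.00151). The loci that fell in the cortex were Ppl, the periplakin gene, by 0.33 (adjusted p = 0.0348) and Lemd3, an inner nuclear membrane protein gene, by 0.25 (adjusted p = 0.00536). In the thalamus they were Icmt, an enzyme gene of lamin precursor processing, by 0.25 (adjusted p = 0.00186) and Lemd3 by 0.16 (adjusted p = 0.0152). Among 25 other genes of the astrocyte reaction, 19 rose and 1 fell in the cortex, with a median of 0.96. In the thalamus 19 rose and 2 fell, with a median of 1.13. The same shares of all loci apply here, and this list was chosen with earlier results of these data known. The largest rises of that list were those of Lgals3 (3.29, adjusted p = 2.02e-06), Cxcl10 (2.18, adjusted p = 0.000178) and Cd44 (2.08, adjusted p = 7.9e-07) in the cortex and of Aspg (3.02, adjusted p = 8.12e-07), Serping1 (2.98, adjusted p = 1.74e-08) and Timp1 (2.73, adjusted p = 8.12e-07) in the thalamus. The loci that fell were Gap43, a growth cone protein gene of neurons, in both regions (-0.27, adjusted p = 0.00649, in the cortex and -0.26, adjusted p = 0.0141, in the thalamus) and Tnc, the gene of the matrix protein tenascin-C, in the thalamus (-0.49, adjusted p = 0.00148). Tnc rose in the cortex (1.32, adjusted p = 1.11e-05). Lgals3 and several others on this list are also made by microglia and macrophages.

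Of the TBI rats, rat 45 had the highest value of its group in 11 of 12 cases (6 members in 2 regions), the exception being Plec in the cortex, and its libraries lay within the range of the other TBI libraries in fragments sequenced. Of 16 relations tested over the 6 TBI rats with exact permutation tests, 1 passed the adjustment by Pearson's r and none by Spearman's rho. That was Gfap with Vim in the thalamus (r = 0.77, permutation p = 0.00278, adjusted p = 0.0444, and rho = 0.94, permutation p = 0.0167, adjusted p = 0.0889). Without the 2 rats farthest from the median of Gfap r was 0.85 over 4 rats. In the cortex Gfap and Vim gave r = 0.93 (permutation p = 0.00694, adjusted p = 0.0556) and rho = 0.94 (permutation p = 0.0167, adjusted p = 0.0889). For Gfap between cortex and thalamus of the same rat r was 0.040 (permutation p = 0.953, adjusted p = 0.953) and rho 0.37 (permutation p = 0.497, adjusted p = 0.612), and r was 0.98 without the 2 rats farthest from the median in the cortex, so the value hung on them.

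Over all 24 libraries, which share the differences of region and injury, the named loci outside the members whose levels followed a member most closely were Lgals3 (r = 0.98), Naprt1 (r = 0.98) and Ptpn6 (r = 0.97) for Gfap and Anxa1 (r = 0.98), S100a6 (r = 0.96) and Aebp1 (r = 0.96) for Vim. For Nes they were Pabpc1 (r = 0.91), Ripk1 (r = 0.89) and Fyb (r = 0.88), and for Synm Bst2 (r = 0.80), TMEM140 (r = 0.80) and Smim3 (r = 0.78). For Lmna they included Eva1b (r = 0.91) and Aldh16a1 (r = 0.89), and for Plec Cic (r = 0.97) and Bcl9l (r = 0.96). Between members themselves r was highest for Gfap and Nes (0.72) and lowest for Gfap and Plec (-0.25). These are descriptions over 15672 loci compared, without a test.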

How the data were processed

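Poly(A) mRNA-Seq libraries (stranded kit, 300 ng of total RNA) of perilesional cortex and ipsilateral thalamus from 12 rats were analysed. The authors aligned reads with TopHat2 2.0.11 and Bowtie2 2.2.2 and assembled transcripts with Cufflinks 2.2.1. The deposited table holds a signal, fragment counts per locus divided by a size factor per library. For 100% of low values in 24 libraries these were whole multiples of 1 step (tolerance 0.1), from which fragments were recovered. The step of the sham thalamus library of rat 55 was too near 1 to be checked independently. Unnamed loci held 1.90 to 2.23% of counts. Whether counting used strand is not given in the sources used here.

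Loci with a mean of at least 10 in the compared libraries were tested with limma 3.58.1 (R 4.3.3) on log2(normalized count + 1), without a block, with Benjamini-Hochberg adjustment at 0.05. Regions were fitted separately for TBI against sham and together for the other comparisons. Exact permutation tests were used for differences between members, for members relative to the identity genes and for correlations over TBI rats. Alternatives were other scalings, filters, pseudocounts (0.1 and 5), a stricter threshold, edgeR 4.0.16, DESeq2 1.42.0, a fit of all libraries, a rat block and leaving out libraries. Scripts were tested on simulated data. Groups came from the labels and no value column was left unmapped. The rats are separate animals. Both regions came from the same rats, so their numbers pair them, and deviations from group means of the 2 libraries of a rat correlated with a median r of 0.19 (0.004 to 0.57, over 0.1 in 10 of 12 rats), against -0.03 between different rats.

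The members and gene lists were chosen with earlier results of these data known. All 6 members are named, and of the lists of filament, linker, reactive and identity genes the up to 3 largest rises and falls past the threshold in each region, with neurofilaments, lamins and Des also named. Cell type marker lists are given by counts and sums. Adjustment of limma p-values is over all loci tested. That of permutation p-values is over the 30 pair tests, the 12 tests against identity genes or the 16 relations. Coordinates are as the authors' files give them, and whether the first base is counted as 0 or 1 is not stated. Promoter sequences are RefSeq's.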

Additional observations from a re-analysis of the deposited data

Results flagged for a closer look

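Of 24 groups of 6 values (6 members in 4 groups), 1 held a value that stood apart from the others by Dixon's criterion, which chance alone gives in about 1 of 20 groups. It was Vim in the thalamus of TBI rat 45, at 11722 normalized counts, whose gap to the next rat was 0.806 of the range of the group. The same library had the highest sum of ependymal and choroid plexus markers of all 24 and the highest sum of fibroblast and meningeal markers in the thalamus. Their part in its Vim value was not tested. Without this library the thalamic log2 change of Vim was 1.11 (limma, adjusted p = 0.000166).

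The TBI effect on Nes differed between the regions, larger in the thalamus by 1.06 on the log2 scale (limma, adjusted p = 0.00757). It was 1.05 (adjusted p = 0.0338) without the choroid-rich libraries, and over all alternatives the adjusted p ran from 0.00151 to 0.0338.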

How the results depend on the processing

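Under every alternative tried, including leaving out each library, Gfap and Vim stayed called higher in both regions, Nes in the thalamus and Synm in the cortex, and the TBI effect on Nes stayed larger in the thalamus. Over all tested values, 1028 kept direction and side of the threshold with 1 library left out and 431 with another setting; 30 and 10 crossed the threshold, and 22 and 3 turned sign. Lmna in the cortex missed the stricter threshold of 0.01.

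At adjusted p under 0.01 the loci called were 1337 higher and 1099 lower in the cortex, 1405 and 2024 in the thalamus and 162 and 242 for the difference between regions, a smaller count by construction. Without the 6 choroid-rich libraries, chosen after seeing the data, they were 1223 and 939 in the cortex and 194 and 228 for the difference, with fewer rats. Leaving out both libraries of rat 45 crossed the threshold for no member in the comparisons across regions.

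With the rat as a block, 1 member (Synm) was called lower for the difference between regions, and 2 (Gfap and Synm) higher in the sham thalamus than cortex, and Synm was called in TBI rats. The block changed no other call of a member. With 1 library left out these counts ran from 0 to 1 and from 1 to 3: Synm was called for the difference without the thalamus of sham rat 38 (adjusted p = 0.0281) or of TBI rat 45 (adjusted p = 0.0381), and Synm and Lmna in sham rats without the thalamus of rat 38 (adjusted p = 0.0172 and 0.0283), Lmna also without the cortex of sham rat 32 or 55 (adjusted p = 0.0484 and 0.0371). In TBI rats Synm was called without the cortex of rat 56, the thalamus of rat 45 or that of sham rat 38. The lower Nes in the sham thalamus lost its call without any of 7 sham libraries (the cortex of rats 26, 34 and 50 and the thalamus of rats 26, 32, 50 and 55; adjusted p up to 0.103) and without the low filter (adjusted p = 0.0659). The causes were not tested.

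Signs turned only where no test passed. The regional difference for Gfap was -0.0019 with edgeR and -0.024 with DESeq2, and from -0.12 to 0.073 with 1 library left out. Vim minus Nes in the thalamus was 0.024 with a pseudocount of 5. Nes minus Lmna in the cortex ran from -0.24 to 0.016, Synm minus Lmna in the thalamus from -0.062 to 0.13, and Synm relative to the identity genes in the thalamus from -0.12 to 0.036. The difference of Nes and Synm in the cortex, 1 of the 12 that passed, lost its call without any of 10 of the 12 libraries (adjusted p up to 0.0893, exact permutation test) and with a pseudocount of 0.1 (adjusted p = 0.0508, exact permutation test). Lmna minus Plec in the thalamus passed without sham rat 26 (adjusted p = 0.0367, exact permutation test) or 32 (adjusted p = 0.0177, exact permutation test), and Plec relative to the identity genes without sham rat 32 (adjusted p = 0.0223, exact permutation test) or against their median (adjusted p = 0.0297, exact permutation test). Counts of 26 to 117 fragments limit Nes most.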
